A study of Mus musculus with 32 samples.

Results

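The FGF (fibroblast growth factor) genes described here were followed in the ribosome-bound RNA of mouse testis cells, and they are the receptors Fgfr1, Fgfr2, Fgfr3 and Fgfr4, the receptor-like Fgfrl1, the co-receptor Klb and the ligands Fgf2, Fgf8 and Fgf9. These 9 genes were chosen by name. Each was read by 1 probe set whose only gene symbol is the member's, so that 9 of the 35556 probe sets on the array are described, on all 32 arrays.

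In RiboTag mice a ribosomal protein carries a hemagglutinin (HA) tag in cells with active Cre recombinase, and an anti-HA immunoprecipitate (IP) of testis homogenate holds the mRNAs on the ribosomes of those cells, while the input holds RNA of the whole testis. The Leydig arrays came from Cyp17iCre: RiboTag mice, as 2 IPs taken 4 h and 2 taken 1 h after luteinizing hormone (LH) in acyline-treated mice, 2 IPs after acyline alone, 3 IPs after saline and 3 inputs after saline. Acyline, an antagonist of gonadotropin-releasing hormone, was given for 4 days in that experiment. The Sertoli arrays came from AMH-Cre: RiboTag mice, as 2 IPs 4 h and 2 IPs 1 h after follicle-stimulating hormone (FSH) in acyline-treated mice, 2 IPs after acyline, 2 after cetrorelix with testosterone, 2 after cetrorelix, another antagonist of the same receptor, 5 IPs after saline and 5 inputs after saline, the antagonists having been given for 3 days. All mice carried both a Cre transgene and the tagged allele, and no IP came from mice without Cre. HA staining had also been seen in scattered tubule cells of the Cyp17iCre: RiboTag testes, so these IPs are not of Leydig cells alone.

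FGFs are secreted or cell-bound proteins that dimerize receptor tyrosine kinases together with heparan sulfate, and the activated receptors signal through adaptor proteins to the MAP kinase cascade and to feedback inhibitors. Endocrine FGFs also use a Klotho protein as a co-receptor. In the embryonic mouse gonad Fgf9 acts through Fgfr2 to maintain the Sertoli cell fate, and in the adult testis FGFs are known as growth factors of spermatogonial stem cells and as modulators of steroid production by Leydig cells.

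Signals are given as log2 values after robust multi-array averaging (RMA), and a difference of 1 on this scale is a 2-fold change. Array medians lay between 6.36 and 6.50 over all 12 groups. Probe sets above a floor of 50 on the linear scale (5.64 in log2) on 1 or more arrays of a fit were tested. A transcript was called where the Benjamini-Hochberg adjusted p of the limma contrast was under 0.05 and the fold reached 2 between IP and input or 1.5 between IPs. The 8 measured Leydig markers of a list of 10 averaged 12.52 to 12.56 in the saline Leydig IPs, against 9.60 to 9.80 in their inputs, and the 17 measured Sertoli markers of a list of 19 averaged 11.02 to 11.14 in the saline Sertoli IPs, against 8.59 to 8.85 in their inputs. The Sertoli markers averaged 9.32 to 9.55 in the saline Leydig IPs, above the 8.67 to 8.74 of their inputs, and 4 of the 17 were called higher and 0 lower there by limma.

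The promoters of Fgfr2 and Fgfr4 are shown because the results turn on these receptors, whose levels ran together over the 12 groups. RefSeq promoters of GRCm38.p6, from 250 bases before to 50 after an annotated start, were found for 7 of the 9 members, and Fgfr1 and Fgf8 had no entry. Capitals mark GC boxes (GGGCGG on either strand) and cores of the cAMP response element (TGACG on either strand), the element through which cyclic AMP, the messenger of LH, acts on many promoters.
Fgfr2, chr7:130266759-130267058, minus strand: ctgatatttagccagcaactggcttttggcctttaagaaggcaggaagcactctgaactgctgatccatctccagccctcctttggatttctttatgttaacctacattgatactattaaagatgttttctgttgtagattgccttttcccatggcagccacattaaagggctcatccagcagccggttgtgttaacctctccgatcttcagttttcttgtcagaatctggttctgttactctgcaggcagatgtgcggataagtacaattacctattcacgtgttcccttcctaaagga
Fgfr4, chr13:55152568-55152867, plus strand: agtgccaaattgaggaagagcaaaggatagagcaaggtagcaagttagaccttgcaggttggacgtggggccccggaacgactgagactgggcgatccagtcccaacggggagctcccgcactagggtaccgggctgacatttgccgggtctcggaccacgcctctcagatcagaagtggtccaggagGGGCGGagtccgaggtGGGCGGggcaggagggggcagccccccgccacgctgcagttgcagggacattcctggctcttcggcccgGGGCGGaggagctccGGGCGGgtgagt
The Fgfr2 promoter held 4 CpG dinucleotides at 43.7% G and C, and that of Fgfr4 held 20 CpG at 65.3%, against medians of 7 CpG and 52.7% over 32851 promoters. In all 6 motifs were searched, on both strands. Fgfr4 had 4 GC boxes, a motif found in 35.7% of all promoters, and Fgfr2 had 0. Neither window held the core TGACG (20.8% of all promoters), the full element TGACGTCA that contains it (1.79%), the site AAGGTCA of steroidogenic factor 1 (4.72%), CCAAT (37.4%) or TATAAA (13.6%). The core was found once each in the windows of Klb and Fgf9, and 2 times in that of Fgf2. These letters describe the 300-base windows and are not sites of measured binding.

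The receptors Fgfr2, Fgfr4 and Fgfr1 were enriched on Leydig ribosomes in saline-treated mice. Fgfr2, which binds Fgf9 among other ligands, read 9.08, 9.47 and 9.36 in the Leydig IPs, against 6.31, 6.43 and 6.48 in their inputs. Fgfr4, known in liver as the receptor of the bile acid regulator Fgf15, read 8.80, 8.96 and 8.79 in the IPs, against 6.86, 6.76 and 6.86 in the inputs. In both genes the lowest IP stood above the highest input by more than the whole spread of either group. The differences were 2.90 ± 0.112 (SE) for Fgfr2, a 7.46-fold enrichment (limma adjusted p = 5.04e-07), and 2.02 ± 0.079 for Fgfr4, a 4.07-fold enrichment (limma adjusted p = 5.30e-07). The study named these receptors from the enrichment and the LH response in these same arrays, so their values here are a description and not independent evidence of their direction. The study also measured both receptors in Leydig IPs by quantitative RT-PCR, and reports enrichment and an increase after LH by that method too. Those measurements come from IPs of the same treatments, and the paper does not say whether the RNA was that of the arrays. By RT-PCR it gives the larger enrichment to Fgfr4, the reverse of the order here. The RT-PCR values were not examined here.

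Fgfr1, the receptor of many paracrine FGFs, was the third. It read 8.47, 9.0 and 8.53 in the Leydig IPs, against 7.84, 7.53 and 7.57 in the inputs. The groups did not overlap, and the difference of 1.02 ± 0.155, or 2.03-fold (limma adjusted p = 6.09e-04), lay close to the 2-fold threshold. It was 0.98 after quantile normalization, 0.86 without the second IP, 0.97 without the second input and 0.98 without the third, each under the threshold with an adjusted p still below 0.05. Sertoli markers were also higher in these IPs than in their inputs, and their part in the Fgfr1 value was not tested.

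Of the 9 members, all of which were tested in this comparison, 3 were called, 3 higher and 0 lower, by limma (7 at an unadjusted p under 0.05, 3 called by the methods' contrast without moderation). Over all 24705 probe sets 21.7% were called, 11.0% higher and 10.7% lower. Of them 16166 had an unadjusted p under 0.05, and the methods' contrast called 5333. The 7 members at an unadjusted p include Klb, whose IPs all lay below the floor. The median difference of the members was 0.18, against -0.03 over all probe sets. Equal amounts of RNA were labeled, so that more cells of a type and more RNA per cell cannot be told apart in these ratios. The labels list replicates as separate samples without naming animals, so a p-value here reflects only how far these few arrays spread, and their number limits the precision.

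The other members differed less between Leydig IP and input. Fgfrl1, a receptor-like protein without a kinase domain, read 8.37, 8.39 and 8.25 in the IPs, against 8.0, 7.91 and 7.89 in the inputs, a difference of 0.40 ± 0.075 (limma adjusted p = 0.00203) that fell short of 2-fold. Fgfr3, a receptor with roles in cartilage growth, read 6.51 to 6.63 in the IPs, against 6.73 to 7.02 in the inputs, a difference of -0.30 (limma adjusted p = 0.0243), again under 2-fold. Neither pair of groups overlapped.

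Klb (beta-Klotho), the co-receptor through which Fgfr1 and Fgfr4 respond to endocrine FGFs, read 5.09, 5.42 and 5.11 in the Leydig IPs, against 5.89, 6.50 and 5.62 in the inputs. All 3 IPs were below the floor of 50, and it was tested only because 2 inputs passed it. Its difference of -0.80 (95% confidence interval -1.30 to -0.30) is therefore a description, and it did not reach 2-fold. The 3 ligands showed no called difference, with 0.05 for Fgf2 (interval -0.16 to 0.26), -0.14 for Fgf8 (-0.32 to 0.04) and 0.18 for Fgf9 (0.01 to 0.35).

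**Figure D1:**
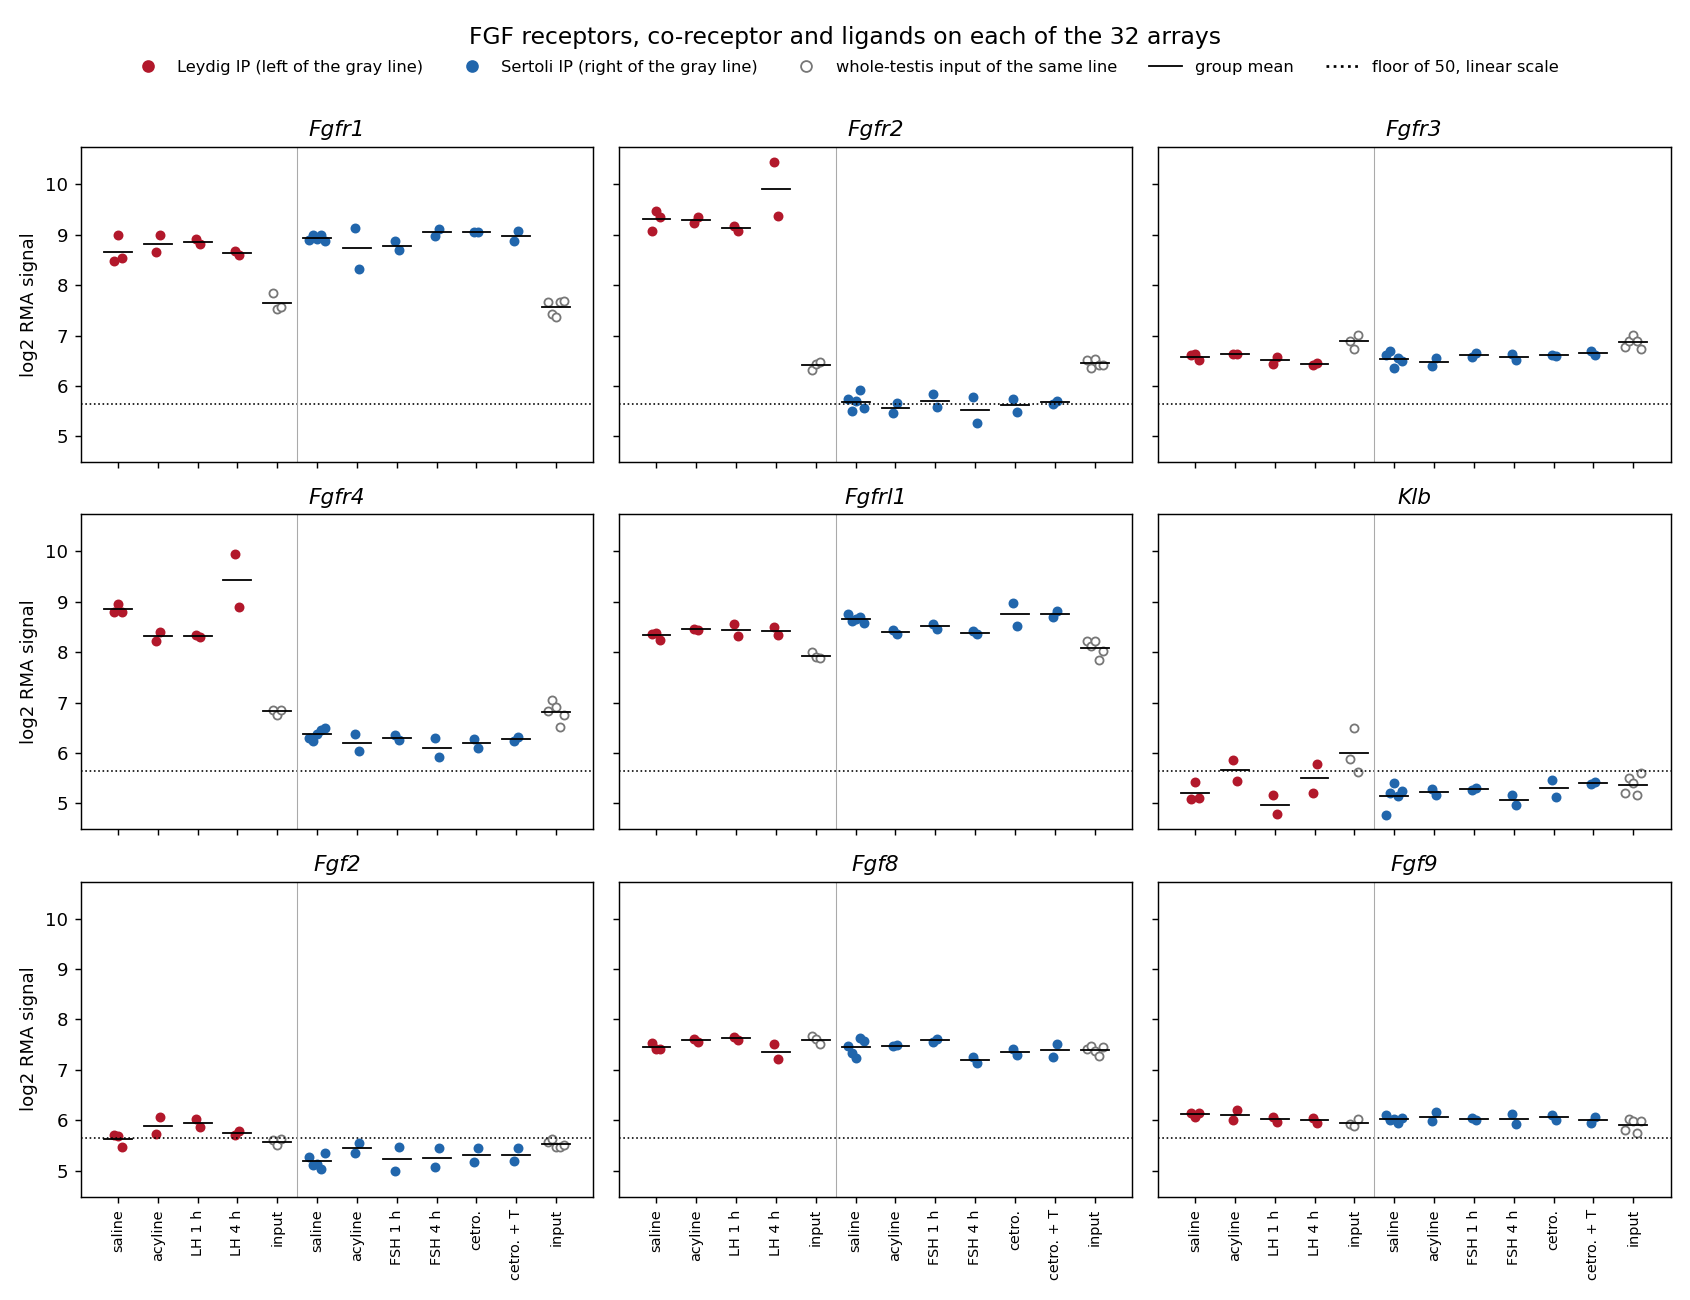
Log2 RMA signal of each member on every array, 1 point per array, by treatment, with Leydig arrays left and Sertoli arrays right of the gray line. Open points are inputs, short black bars group means and the dotted line the floor of 50 (5.64 in log2), and levels compare only within a panel. Fgfr2 lay between 9.08 and 10.45 in the 9 Leydig IPs, between 5.27 and 5.91 in the 15 Sertoli IPs and between 6.31 and 6.53 in the 8 inputs.

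In Sertoli ribosomes only Fgfr1 was called among the members. It read 8.89, 9.0, 8.91, 8.99 and 8.87 in the saline Sertoli IPs, against 7.67, 7.43, 7.37, 7.66 and 7.69 in their inputs. The lowest IP stood 1 unit and more above every input, and the difference was 1.37 ± 0.075, or 2.58-fold (limma adjusted p = 8.26e-09). This call was kept under every alternative that was run.

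Fgfr2 read 5.75, 5.50, 5.70, 5.91 and 5.56 in the Sertoli IPs, against 6.52, 6.36, 6.53, 6.41 and 6.42 in the inputs. Fgfr4 read 6.29, 6.23, 6.38, 6.45 and 6.50 in the IPs, against 6.84, 7.06, 6.92, 6.52 and 6.75 in the inputs. Both receptors thus lay below whole testis in all 5 IPs, with no overlap between the groups, the reverse of their place in the Leydig line. Fgfr2 lay at the floor in these IPs, above it on 3 of the 5 arrays and at a mean of 5.69, so that differences set against them are limited by the floor. The differences from input were -0.76 ± 0.080 for Fgfr2 (limma adjusted p = 3.05e-06) and -0.45 ± 0.097 for Fgfr4 (limma adjusted p = 0.00133), neither of them 2-fold.

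Fgfrl1 read 8.59 to 8.75 in the Sertoli IPs, against 7.85 to 8.23 in the inputs, and differed by 0.57 ± 0.078 (limma adjusted p = 3.09e-05). Fgfr3 read 6.36 to 6.69 in the IPs, against 6.74 to 7.01 in the inputs, and differed by -0.32 ± 0.077 (limma adjusted p = 0.00259). Fgfrl1 and Fgfr3 therefore stood on the same side of the input in both cell types, in each case by less than 2-fold. Fgf8 differed by 0.05 (interval -0.12 to 0.23) and Fgf9 by 0.12 (-0.03 to 0.27), and neither passed the test.

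Klb and Fgf2 passed the floor on none of the 10 saline Sertoli arrays and were not tested there. Fgf2, a growth factor used to culture spermatogonial stem cells, read 5.04 to 5.35 in those IPs, against 5.47 to 5.62 in the inputs. Of the 7 members tested 1 was called, 1 higher and 0 lower, by limma (5 at an unadjusted p under 0.05, 1 by the methods' contrast), against 24.1% of 24797 probe sets, 12.4% higher and 11.7% lower. Of all these probe sets 17668 had an unadjusted p under 0.05, and the methods' contrast called 5970. The median over the 7 tested members was 0.05, against -0.03 over all probe sets.

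**Figure D2:**
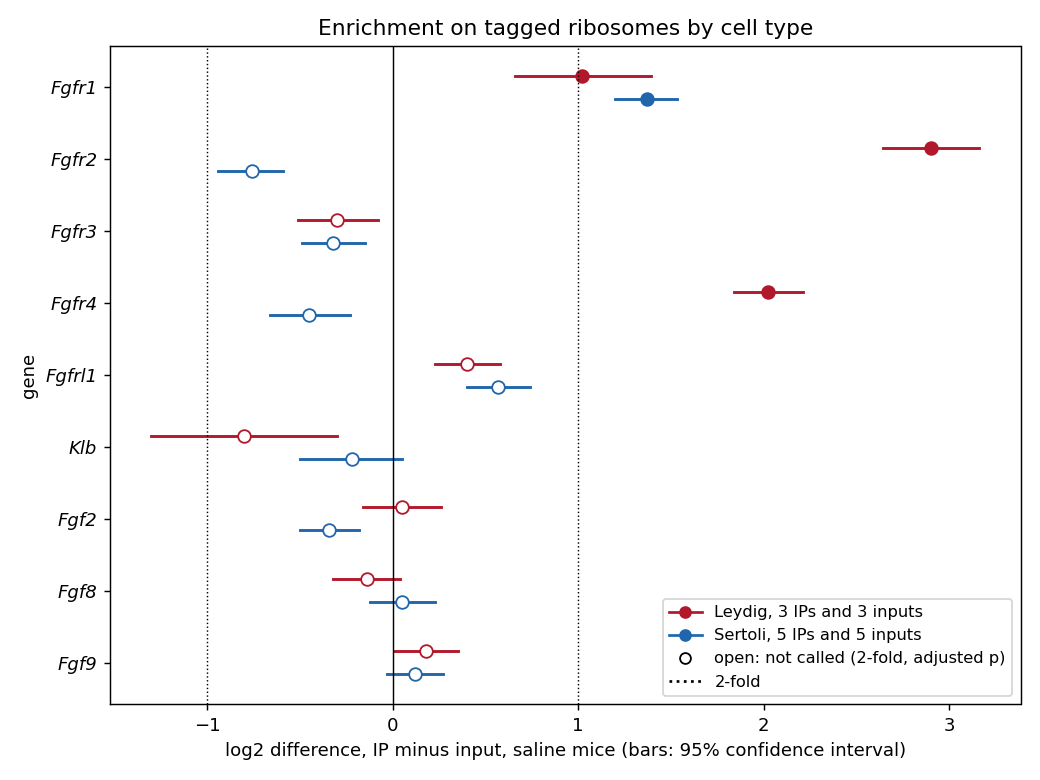
Log2 difference of IP minus input in saline-treated mice for each member, Leydig above Sertoli, with 95% confidence intervals from limma and filled points where the transcript was called. Fgfr2 (2.90 and -0.76) and Fgfr4 (2.02 and -0.45) lay on opposite sides of 0 in Leydig and Sertoli IPs, while Fgfr1 (1.02 and 1.37) was called in both. Klb and Fgf2 were under the floor in the Sertoli line and are drawn without a test.

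The difference of the 2 enrichments, Leydig minus Sertoli, was tested itself in the 16 saline arrays. It was 3.66 ± 0.139 for Fgfr2 (limma adjusted p = 1.06e-11), with no fold given since its Sertoli IPs lay at the floor, and 2.47 ± 0.142 for Fgfr4 (5.54-fold, limma adjusted p = 1.04e-09). Every Leydig IP exceeded every Leydig input and every Sertoli IP fell below every Sertoli input for these receptors. For Fgf2 the difference was 0.39 and did not reach 2-fold. Fgf2 entered this fit only through 2 Leydig IPs above the floor, the group in which it was highest, so that its value is a description.

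Fgfr1 differed in enrichment by -0.34 ± 0.163 (interval -0.69 to 0.00, limma adjusted p = 0.121), so that a difference between the cell types was not shown. The same held for Fgfrl1, at -0.17 (-0.41 to 0.07), Fgfr3, at 0.02 (-0.24 to 0.29), Fgf8, at -0.19 (-0.45 to 0.06), and Fgf9, at 0.06 (-0.16 to 0.27). Klb differed by -0.57 (interval -1.10 to -0.04, limma adjusted p = 0.0889). It entered this fit only through 2 Leydig inputs above the floor, the group in which it was highest, so that its value is a description. Of the 9 members 2 were called, 2 higher and 0 lower in Leydig cells, by limma. Over all 25524 probe sets 11.5% were called, 5.48% higher and 5.98% lower. At an unadjusted p under 0.05 there were 4 members, Klb and Fgf2 among them, and 10899 of all probe sets. The methods' contrast called 2 members and 2938 of all probe sets.

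Set directly against each other, the saline Leydig IPs exceeded the saline Sertoli IPs by 3.62 ± 0.179 for Fgfr2 (limma adjusted p = 9.36e-12), again set against IPs at the floor, and by 2.48 ± 0.161 for Fgfr4 (5.58-fold, limma adjusted p = 3.59e-10). Fgfr1 averaged 8.67 ± 0.29 in Leydig IPs and 8.93 ± 0.06 in Sertoli IPs (SD, n = 3 and 5), and these groups overlapped. Fgfrl1 was lower in Leydig IPs by 0.33 in log2 units (limma adjusted p = 0.00404), under the 1.5-fold threshold. Fgf2 averaged 5.62 in Leydig IPs and 5.18 in Sertoli IPs, and since it passed the floor in Leydig IPs only, its difference is given as a description. The Fgfrl1 difference moved with scaling, to -0.22 after quantile normalization and -0.41 after centering the arrays on their medians.

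Fgfr3, Klb, Fgf8 and Fgf9 differed by 0.00 to 0.09 between the saline IPs, with overlapping groups in each case. By limma 2 of the 9 members were called in this comparison, 2 higher and 0 lower in Leydig IPs (4 at an unadjusted p under 0.05, 2 by the methods' contrast), against 25.7% of 25399 probe sets, 12.4% higher and 13.3% lower. Among all these probe sets 14497 had an unadjusted p under 0.05, and the methods' contrast called 6550. The lines differ in Cre driver and in animals, and these cannot be told apart from the cell type.

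Acyline, after which the study reports loss of serum LH and testosterone and a partial fall of FSH, changed no member in Leydig IPs by the test. Fgfr4 read 8.23 and 8.41 after acyline, against 8.80, 8.96 and 8.79 after saline, so that both acyline arrays lay below all 3 saline arrays. The difference was -0.53 ± 0.252 (limma adjusted p = 0.397). The groups also did not overlap for Fgfrl1 (0.13), Klb (0.44), Fgf2 (0.26) and Fgf8 (0.12), each higher after acyline. The share of all probe sets without overlap was not counted, so nothing is read from the separation. Fgfr2 read 9.23 and 9.36 after acyline, within the 9.08 to 9.47 of saline, with a difference of -0.01 (interval -0.62 to 0.60). By limma 0 of the 9 members were called (0 at an unadjusted p under 0.05, 0 by the methods' contrast), against 0.143% of 24461 probe sets. Of these probe sets 3346 had an unadjusted p under 0.05, and the methods' contrast called 581.

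At 1 h after LH the receptors stood at the acyline level. Fgfr4 read 8.34 and 8.30 at 1 h, against 8.23 and 8.41 after acyline alone, a difference of 0.00 (interval -0.63 to 0.63). Fgfr2 read 9.18 and 9.08 at 1 h, against 9.23 and 9.36 after acyline alone, a difference of -0.16 (-0.83 to 0.50). Klb read 5.16 and 4.79 at 1 h, against 5.86 and 5.45 after acyline alone, a difference of -0.67 (unadjusted p = 0.0179 and adjusted p = 0.740 by limma), with 1 of the 4 values above the floor. By limma 0 of the 9 members were called (1 at an unadjusted p under 0.05, 0 by the methods' contrast), against 0.00818% of probe sets. Of all probe sets 1483 had an unadjusted p under 0.05, and the methods' contrast called 164.

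At 4 h after LH the 2 Leydig IPs disagreed on both receptors. Fgfr4 read 9.95 and 8.90 at 4 h, against 8.23 and 8.41 after acyline. Fgfr2 read 10.45 and 9.38 at 4 h, against 9.23 and 9.36 after acyline. The first array of the LH 4 h group was the highest of all 32 arrays for both genes, while the second lay within the saline range for both. The mean differences from acyline were 1.11 ± 0.276 for Fgfr4 (2.15-fold, unadjusted p = 0.00338 and adjusted p = 0.102 by limma) and 0.62 ± 0.292 for Fgfr2 (1.54-fold, unadjusted p = 0.0643 and adjusted p = 0.302 by limma).

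**Figure D3:**
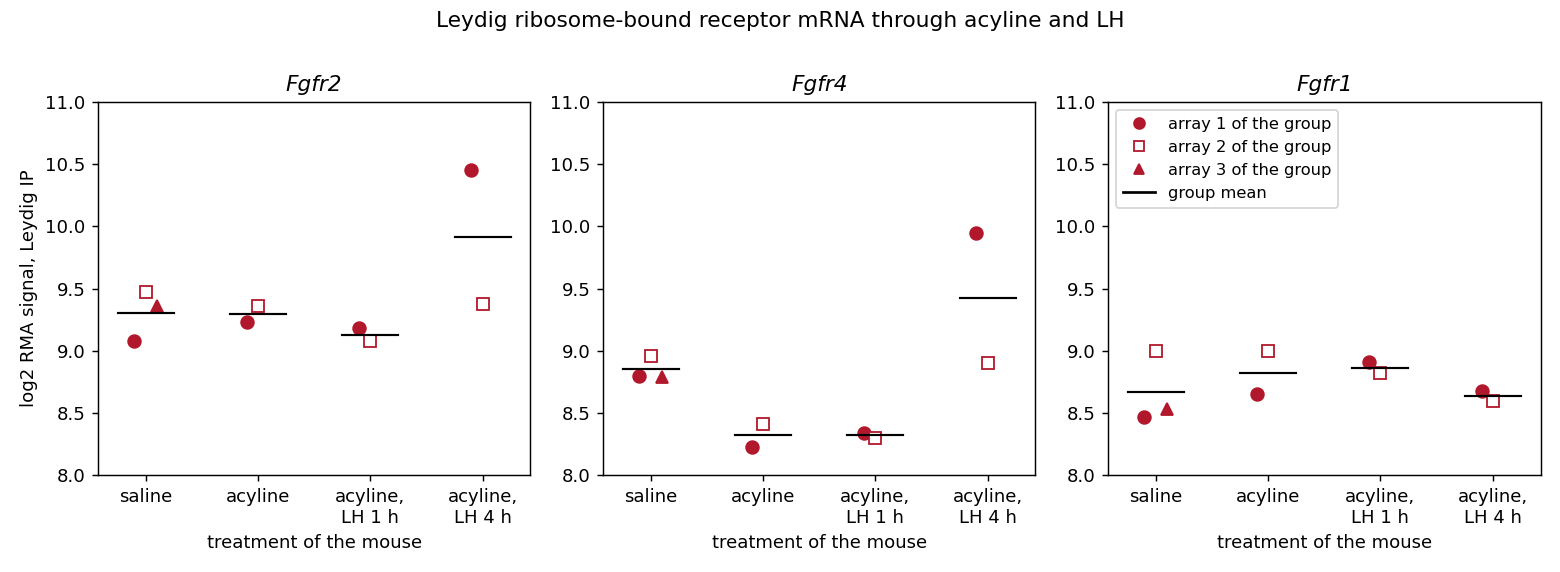
Log2 RMA signal of Fgfr2, Fgfr4 and Fgfr1 in the Leydig IPs of mice given saline, acyline, or acyline and LH, 1 symbol per array and black bars for group means. At LH 4 h array 1 read 10.45 for Fgfr2 and 9.95 for Fgfr4, and array 2 read 9.38 and 8.90, while Fgfr1 read 8.68 and 8.60.

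With the second LH 4 h array left out, the differences from acyline were 1.16 for Fgfr2 and 1.63 for Fgfr4. With the first left out, they were 0.09 and 0.58. Each rests on a lone LH 4 h array, so only the differences are given. The SD at LH 4 h was 0.76 for Fgfr2 and 0.74 for Fgfr4. In the other Leydig IP groups it was at most 0.20 and 0.13. The direction was upward in both arrays for both genes, but the size of the Fgfr2 change lay almost wholly in array 1. This describes the arrays alone and not the RT-PCR that the study reports for both receptors.

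The probe sets called at LH 4 h were also further from acyline in array 1 in the median. They were called from these same 2 arrays, and a call favors arrays that lie close. The size of their gap is therefore not set against that of the receptors. Over the 60 called higher the median difference from the acyline mean was 0.96 in array 1 and 0.81 in array 2. The difference was larger in array 1 for 50 of them. Over the 90 called lower the medians were -1.05 and -0.91, and the difference was larger in size in array 1 for 63 of them. For Scarb1, the receptor for high-density lipoprotein, these differences were 2.28 and 1.26, for Star, the carrier of cholesterol into mitochondria, 1.16 and 0.80, and for Cyp11a1, the side-chain cleavage enzyme, 0.94 and 0.46. Star and Cyp11a1 were among the 8 Leydig markers tested, of which limma called 0 at LH 4 h against acyline. The gap between the arrays was 1.07 for Fgfr2 and 1.05 for Fgfr4, larger than that of 98.87% and 98.78% of 22759 probe sets above the floor. The mean over Leydig markers was 12.54 in array 1 and 12.37 in array 2, over spermatogonia and spermatocyte markers 8.05 and 8.48, over spermatid markers 10.38 and 10.70, and over Sertoli markers 9.14 and 9.38. Their part in the receptor values was not tested.

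**Figure D4:**
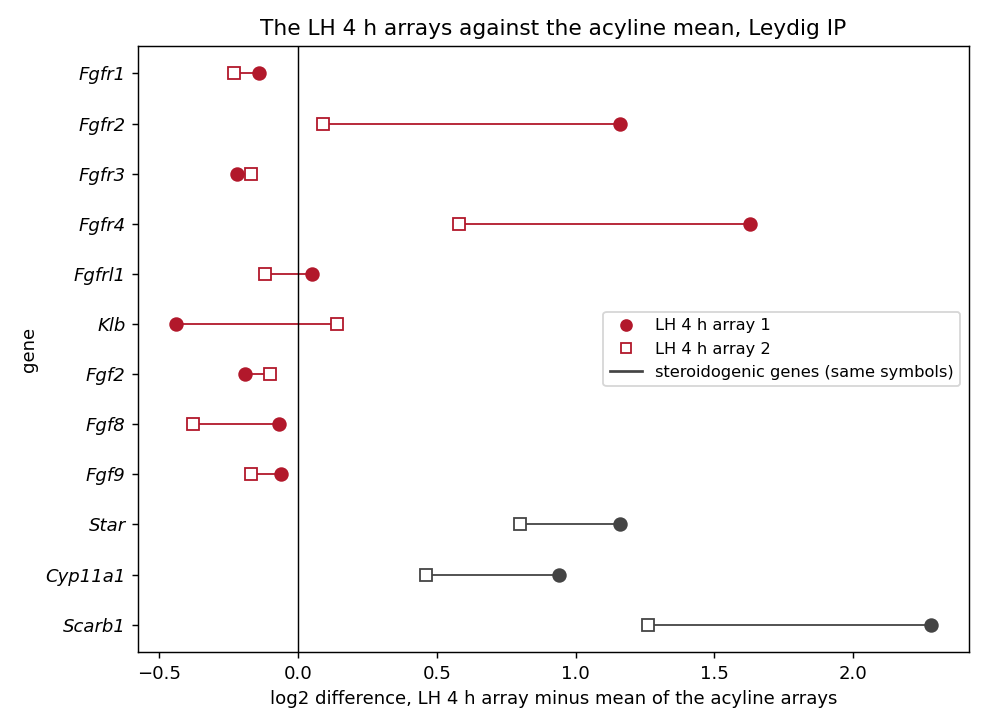
Log2 difference of each LH 4 h Leydig IP from the mean of the acyline IPs, filled circles for array 1 and open squares for array 2, for the members in red and the steroidogenic genes Star, Cyp11a1 and Scarb1 in gray. Fgfr2 (1.16 and 0.09) and Fgfr4 (1.63 and 0.58) were the members with a positive difference in both arrays.

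By limma 0 of the 9 members were called at LH 4 h against acyline (1 at an unadjusted p under 0.05, and 1, Fgfr4, by the methods' contrast), against 0.613% of probe sets. Against LH 1 h the difference was 1.11 for Fgfr4 (limma adjusted p = 0.138) and 0.78 for Fgfr2 (limma adjusted p = 0.247), and 0 members were called by limma (2 at an unadjusted p under 0.05, 1 by the methods' contrast), against 0.200% of probe sets. Against saline it was 0.57 for Fgfr4 and 0.61 for Fgfr2 (limma adjusted p = 0.204 for both), with overlapping groups, and 0 members were called by limma (0 at an unadjusted p under 0.05, 0 by the methods' contrast), against 3.32% of probe sets. Among all 24461 probe sets 4470 against acyline, 3944 against LH 1 h and 6016 against saline had an unadjusted p under 0.05. By the methods' contrast 699, 590 and 1121 of them were called. These comparisons share the LH 4 h arrays, and those with acyline share the acyline arrays, so that their values are not independent of each other.

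The remaining members moved little at 4 h against acyline. Their differences ran from -0.22 for Fgf8, at 7.51 and 7.21 against 7.62 and 7.55, to -0.03 for Fgfrl1, and all 7 were negative with adjusted p-values of 0.337 or more by limma.

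In the Sertoli IPs no member responded to any treatment by the test. Fgfr1 read 9.14 and 8.32 after acyline, against 8.87 to 9.0 after saline, and the gap of 0.81 between those acyline arrays was larger than that of 98.85% of probe sets above the floor. The acyline mean differed from saline by -0.20 (interval -0.55 to 0.14). Fgfr2 stayed between 5.27 and 5.91 and Fgfr4 between 5.92 and 6.50 over all 15 Sertoli IPs.

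Of the 7 members over the floor in the Sertoli IPs, limma called 0 after acyline (1, Fgfrl1 at -0.25, at an unadjusted p under 0.05, 0 by the methods' contrast), against 0.00406% of 24648 probe sets. It called 0 after cetrorelix (0 and 0), against 0.0122%, and 0 for testosterone against cetrorelix (0 and 0), against 0.00406%. For FSH against acyline it called 0 at 1 h (0 and 0), against 0% of all probe sets (2324 at an unadjusted p under 0.05, 318 by the methods' contrast), and 0 at 4 h (1 and 0), against 0.0203%. Over all probe sets the other comparisons held 1234 (acyline), 1229 (cetrorelix), 1234 (testosterone) and 1085 (FSH 4 h) at an unadjusted p under 0.05. The methods' contrast called 113, 95, 157 and 151 there. The 1 at FSH 4 h was Fgf8, which read 7.26 and 7.13, against 7.47 and 7.49 after acyline (difference -0.29, unadjusted p = 0.0471 and adjusted p = 1 by limma).

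Whether acyline acted differently in the cell types was tested over all 24 IPs. For Fgfr4 the effect in Leydig minus that in Sertoli cells was -0.37 ± 0.273 (limma adjusted p = 0.765) and for Fgfr2 0.11 ± 0.304 (limma adjusted p = 0.952). By limma 0 of the 9 members were called (1, Fgfrl1 at 0.38, at an unadjusted p under 0.05, 0 by the methods' contrast), against 0.0669% of 25399 probe sets. Of all these probe sets 2199 had an unadjusted p under 0.05, and the methods' contrast called 479. The acyline courses had different lengths in the 2 lines.

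Ordered by group mean, Fgfr2 was highest in the Leydig IPs at LH 4 h (9.91 ± 0.76, SD, n = 2), followed by saline (9.31 ± 0.20, n = 3), acyline (9.29 ± 0.09, n = 2) and LH 1 h (9.13 ± 0.07, n = 2), then by both inputs (6.45 and 6.41), and all 6 Sertoli IP groups lay at 5.52 to 5.70. Within these blocks the ranges of neighbors overlapped, except between LH 1 h (9.08 and 9.18) and acyline (9.23 and 9.36). Fgfr4 ran in the same order of blocks, with Leydig IP means of 8.32 to 9.42, inputs of 6.83 and 6.82 and Sertoli IP means of 6.11 to 6.37. Fgfr1 ran from 8.64 to 9.05 in all 10 IP groups and stood at 7.64 and 7.56 in the inputs, and Fgfr3 was highest in the inputs (6.88 and 6.86), above every IP group (6.44 to 6.66).

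Over the 12 group means Fgfr2 and Fgfr4 correlated at r = 0.99, a description over groups that share arrays of few kinds. Of 16067 genes, those whose group means were most like Fgfr2 were Oxtr, the oxytocin receptor, and Wnt5a, a secreted Wnt ligand (r = 0.998 each), and Creb3l1, a membrane-bound transcription factor (0.997). For Fgfr4 they were Niban1 and Mrap, the accessory protein of the corticotropin receptor (0.996 each), and Cbr3, a carbonyl reductase (0.992). Klb had the weakest likeness to any gene among the members (at most 0.820), and it passed the floor on 4 of 32 arrays. Fgf8 and Fgf9, over the floor on all 32 arrays, had standard deviations of 0.14 and 0.10 over them.

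The other parts of the pathway were counted from 5 fixed lists. The counts stand beside the shares of all probe sets, which were 11.0% higher and 10.7% lower in Leydig IP against input, 12.4% and 11.7% in Sertoli IP against input, and 12.4% and 13.3% between the saline IPs. An unadjusted p under 0.05 was reached by 16166 of 24705 probe sets in Leydig and 17668 of 24797 in Sertoli IP against input. The methods' contrast called 5333 and 5970 of them. The lists are small, and nothing particular to a list is read from its count. Of 18 other FGF ligands limma tested 13 in Leydig IP against input and called 0 (2 at an unadjusted p under 0.05, 0 by the methods' contrast, median -0.10), and it tested 14 in Sertoli IP against input and called 0 (8 and 0, median 0.14). Between the saline IPs 2 of 12 were lower in Leydig than in Sertoli IPs, a share near the 13.3% of all probe sets, Fgf21, the endocrine ligand of Klb with Fgfr1, by 1.14 in log2 units (limma adjusted p = 2.86e-07) and the intracellular Fgf13 by 0.78 (limma adjusted p = 3.03e-05).

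Of 6 co-receptors and binding proteins tested, Lrp4 was higher (1.40) and Ncam1, a cell adhesion molecule, lower (-1.02) in Leydig IP than in input, while Flrt1 (2.41) and Flrt2 (1.49), membrane proteins that bind FGF receptors, were higher in Sertoli IP than in input. Leydig IPs exceeded Sertoli IPs for Lrp4 (1.34) and lay below them for Flrt1 (-2.12), Flrt2 (-2.06) and the cadherin Cdh2 (-2.03), which were 1 higher and 3 lower of 8 tested, against 12.4% and 13.3% of all probe sets.

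Heparan sulfate genes were called in both directions, with 7 higher and 2 lower of 25 in Leydig IP against input (median 0.34), against 11.0% and 10.7% of all probe sets, and 8 higher and 2 lower of 25 in Sertoli IP against input (median 0.22), against 12.4% and 11.7%. The glypican Gpc4 was enriched in Leydig (1.88) and in Sertoli IPs (2.88). Set against Sertoli IPs, 6 were higher and 8 lower of 26 in Leydig IPs (12.4% and 13.3% of all probe sets), with the sulfatases Sulf1 (-2.80) and Sulf2 (-2.30), which trim sulfate from heparan chains, the sulfotransferase Hs6st2 (-1.95) and the syndecan Sdc4 (-1.86) lowest.

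Of 16 adaptor and cascade genes tested, 5 were higher and 1 lower in Leydig IP against input (median 0.67, against 11.0% and 10.7% of all probe sets), among them the phosphatase Ptpn11 (1.47) and the adaptor Shc1 (1.39), and 6 higher and 2 lower in Sertoli IP against input (median 0.84, against 12.4% and 11.7%), among them the exchange factors Sos2 (2.31) and Sos1 (1.86). Between the saline IPs 4 of the 16 were lower and 0 higher in Leydig IPs, against 13.3% and 12.4% of all probe sets. Of 14 feedback inhibitors and targets 2 were higher and 0 lower in Leydig IP against input (median 0.50, against 11.0% and 10.7%), the transcription factor Etv5 (1.78) and the inhibitor Spred1 (1.52). In Sertoli IP against input 6 were higher and 0 lower (median 0.40, against 12.4% and 11.7% of all probe sets), with Etv5 (2.71), the MAP kinase phosphatase Dusp6 (2.20) and Spry1 (1.37) at the top. Dusp6 (-2.15), Spry1 (-1.02) and Etv5 (-0.86) were lower in Leydig than in Sertoli IPs and Spred1 (1.13) higher, within 1 higher and 4 lower of 14 (12.4% and 13.3% of all probe sets). The median over all probe sets tested was -0.03 in both comparisons with input and -0.02 between the saline IPs. By the difference of enrichments, at 2-fold, limma called 0 of 14 ligands, and neither Fgf21 nor Fgf13. It called 1 higher and 3 lower of 6 co-receptors, and 4 higher and 5 lower of 26 heparan sulfate genes. Of 16 adaptor and cascade genes 2 were lower (Sos1 and Sos2) and 0 higher. Of 14 feedback genes 1 was lower (Dusp6) and 0 higher. Over all probe sets 5.48% were higher and 5.98% lower.

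Among these 5 lists the hormone comparisons held 3 called values, and nothing particular to a list is read from them. At LH 4 h against acyline the adaptor Gab2 was lower (-1.09 ± 0.179, limma adjusted p = 0.0435). It was 1 of 16 tested in its list, against 0.613% of all probe sets. At LH 4 h against saline Myc (1.44 ± 0.334, limma adjusted p = 0.0433) and Ndst4 (0.62 ± 0.101, limma adjusted p = 0.0159) were higher in the Leydig IPs. They were 1 of 14 and 1 of 26 tested in their lists, against 3.32% of all probe sets. Ndst4 lay below input in the saline IPs of both lines (-2.40 in Leydig and -1.98 in Sertoli).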

How the data were processed

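RNA of testis homogenates (inputs) and of anti-HA immunoprecipitates (IPs) was hybridized to Affymetrix Mouse Gene 1.0 ST arrays, 32 in all. Equal amounts of RNA had been amplified before labeling. What the authors deposited are log2 values from RMA, one for each of 35556 probe sets, and the sources used here do not give the RMA version. RMA scales each array to the others, so that a change shared by most transcripts would not be seen. Groups were taken from the GEO titles. The title and sample type of the 4 cetrorelix arrays name an IP, which was followed, although their source label names the input.

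The platform annotation gave 1 gene symbol for 21789 probe sets and several for 1621, and it did not list 12146. RefSeq held the symbols of 21698, with 0 changed. A probe set sums a whole transcript, so that receptor isoforms are not told apart.

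R 4.3.3 with limma 3.58.1 was used, with all IP groups of a line in its hormone fits, the saline IPs and inputs of a line in its enrichment fit, the 4 saline groups for the difference of enrichments and all IPs for comparisons between lines. P-values were adjusted by the Benjamini-Hochberg method over all probe sets of a fit. The methods name an analysis of variance with contrasts and state no adjustment of p, and the methods' contrast here has ordinary variances and an unadjusted p under 0.05 with the same folds. Fits were tested on simulated data. Genes named are the 9 members, up to 4 called genes of each list with the largest change, and the 3 genes most like a member over the group means. The alternatives were no floor, quantile normalization, median centering, ordinary variances, the methods' contrast, fits of only the groups compared, a replicate block, Sertoli saline arrays 1 to 3, and fits without each single array. The members and lists were chosen with earlier results of these data known. Promoters are those of RefSeq on GRCm38.p6.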

Additional observations from a re-analysis of the deposited data

Results flagged for a closer look

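Enrichment on tagged ribosomes differed between the cell types for 2 members that were called by the test of the difference itself, Leydig minus Sertoli, in limma. It was 3.66 for Fgfr2 (adjusted p = 1.06e-11) and 2.47 for Fgfr4 (adjusted p = 1.04e-09). For Fgfr2 the enrichment was 2.90 in the Leydig and -0.76 in the Sertoli line, and for Fgfr4 2.02 and -0.45. The difference of 0.39 for Fgf2 also had an adjusted p under 0.05, but it was not called, and Fgf2 entered the fit only through 2 Leydig IPs above the floor, so that it supports nothing. No sample stood apart from its group in the 18 sets of 5 saline Sertoli arrays tested for a single distant value.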

How the results depend on the processing

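Most groups hold 2 arrays, and the Leydig hormone fits have 5 residual degrees of freedom. The number of members called stayed within 1.5 times in 202 recomputed values and rose in 5, all of them on LH 4 h. By the methods' contrast 1 member (Fgfr4) was called for LH 4 h against acyline and 1 against LH 1 h. It called 699 and 590 of all 24461 probe sets there. Leaving out each array in turn gave 0 to 2 members for LH 4 h against acyline, 0 to 2 against LH 1 h and 0 to 2 against saline, the 2 being Fgfr2 and Fgfr4 without the second LH 4 h array. Against saline they then differed by 1.14 (limma adjusted p = 0.0199) and 1.10 (0.0125), and against LH 1 h by 1.32 (0.0213) and 1.63 (0.00584). The only calls lost were 4 for Fgfr1 in Leydig IP against input, at 0.86 to 0.98. No value changed sign among those called.

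With the replicate block 3 members were called in Leydig IP against input, 1 in Sertoli IP against input and 2 for the difference of enrichments, as without it, and it changed no other call. Correlations of the deviations of same-numbered IPs and inputs were 0.018 to 0.119 in the Leydig and -0.057 to 0.120 in the Sertoli line, and the labels do not say whether a number marks 1 homogenate, so that the pairing of IP and input was neither shown nor excluded. The block was not run for Leydig against Sertoli IPs, since these lines share no animals, and no member had another probe set to try.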
